A study of Bos taurus with 53 samples.

Results

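Embryonic discs of day 14 bovine embryos were compared between oocytes matured in the HIGH PA medium, which is rich in palmitic acid, and oocytes matured in the CONTROL medium, which held no fatty acid. The comparison rests on the 11 libraries of the series' 53 that the labels give as embryonic disc and place in 1 of these media, 8 HIGH PA against 3 CONTROL. The disc is the part of the conceptus that becomes the body of the calf. At this age it holds the pluripotent epiblast with the underlying hypoblast, and it is cut by hand from the trophoblast around it.

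Palmitic acid is the saturated fatty acid that rises in blood and follicular fluid when fat is mobilised, as in dairy cows after calving. Cells take fatty acids up, store them in lipid droplets, burn them in mitochondria by β-oxidation or build them into membranes. An excess of saturated fatty acid is known to burden mitochondria and the endoplasmic reticulum, where it can start the unfolded protein response. The fatty acids were present only while the oocyte matured, so the discs of day 14 developed long after the exposure had ended.

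HIGH PA medium held 150 µM palmitic, 28 µM stearic and 21 µM oleic acid in 0.45% ethanol, and CONTROL medium held neither fatty acid nor solvent. Fertilisation in vitro, culture in medium with serum, transfer of blastocysts to recipient cows and flushing were common to both groups. The 8 HIGH PA discs came from 4 cows: replicates 1 and 5 from cow 72, replicates 2, 6 and 7 from cow 07, replicates 4 and 8 from cow 13 and replicate 3 from cow 813. Embryo shape was uneven. HIGH PA replicates 3, 4, 6 and 8 came from tubular embryos and replicates 1, 2, 5 and 7 from ovoid ones, while all 3 CONTROL embryos were tubular. The CONTROL embryos were all male and were all flushed from cow 813, which received CONTROL embryos 1 time. Of the HIGH PA discs 7 were male and 1, replicate 5, was female. Palmitic acid, the other fatty acids, the solvent and the CONTROL flush therefore cannot be told apart, and in the full comparison shape is uneven too, so the 4 tubular HIGH PA discs are also given apart. The p-values rest on the spread among single embryos, and discs of the same medium from the same recipient are treated as flushed together. BASAL discs, cited below for scale, came from oocytes matured with less palmitic acid. Stearic acid, oleic acid and ethanol were the same in BASAL as in HIGH PA medium. The 12 BASAL discs came from 6 cows, with 8 tubular and 4 ovoid, 7 male and 5 female.

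Depth and cell makeup varied more within the groups than between them. HIGH PA discs held 119116 to 4005676 reads in exons (median 1860015), and the CONTROL discs held 284848, 2573384 and 3259392. HIGH PA replicate 5 was the shallowest: 1 of its reads equals 8.4 CPM (reads per 1000000 exon reads of the library) and 3 reads, taken here as the floor of detection, equal 25.2 CPM, so a value of 0 there allows a level of up to 25.2 CPM. All 15 epiblast markers in the table had reads among these 11 discs, and 12 of them had reads in every disc. Summed trophectoderm markers ran from 9357 to 23520 CPM in HIGH PA and from 17480 to 23890 CPM in CONTROL, with the lowest sum in HIGH PA replicate 3, which also had the highest epiblast sum (2030 CPM). Markers of maternal blood and immune cells summed to 16.5 to 75.4 CPM in HIGH PA and 26.4 to 80.7 CPM in CONTROL, with 6 of 21 at 0 in all 11 discs, HBB and S100A8 among them. Endometrial markers summed to 26.2 to 169 and 36.2 to 66.7 CPM, with 3 of 14 at 0 in all 11 discs (PIGR, ESR1 and PAEP). Of these markers 1, COL1A1, had reads in all 11 discs, with 3.95 to 72.5 CPM in HIGH PA and 11.35 to 21.1 CPM in CONTROL. SPP1 reached 57.7 CPM in HIGH PA and 17.6 CPM in CONTROL. For depth, mitochondrial share, intron share, the share of the 50 most abundant genes and the 6 marker sums, the exact two-sided permutation test gave Benjamini-Hochberg adjusted p-values from 0.873 to 1 (10 measures, smallest p possible 0.0121).

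**Figure D1:**
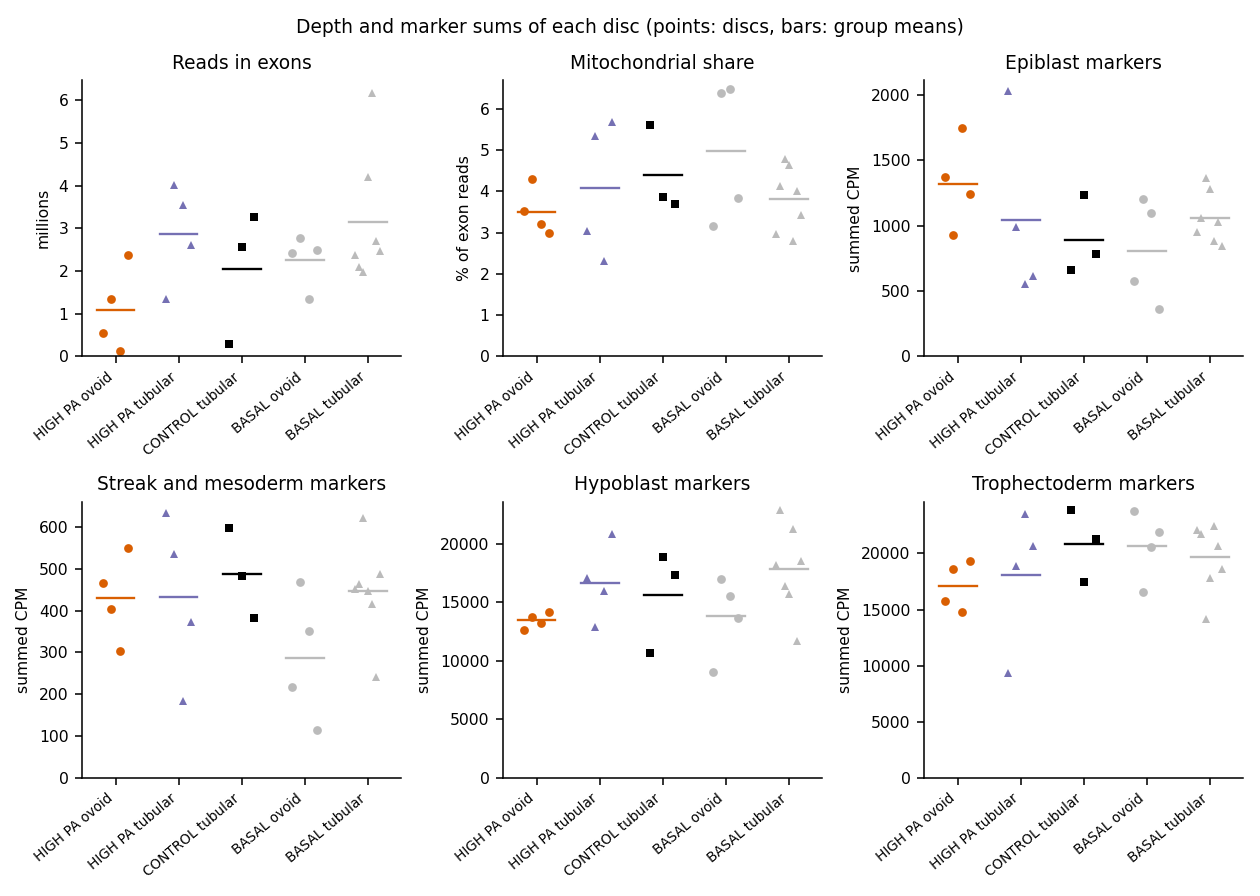
Reads in exons (axis in units of 1000000), mitochondrial share of exon reads in percent and summed CPM of 4 marker lists for each disc, by medium and embryo shape. Points are discs and bars are group means; the BASAL disc with 6814 reads is not drawn, and BASAL discs, matured with a low palmitic acid level, are shown in grey for scale. CONTROL discs lie within or close to the range of the HIGH PA discs in every panel.

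No gene passed the test between HIGH PA and CONTROL discs. By edgeR's quasi-likelihood test 0 of 11040 features (0%) had a Benjamini-Hochberg adjusted p under 0.05, and the smallest adjusted p was 1. An unadjusted p under 0.05 was reached by 465 features (4.21%), 207 of them higher (1.88%) and 258 lower (2.34%) in HIGH PA. The 8 HIGH PA discs did not overlap the 3 CONTROL discs in CPM for 121 features (1.1%), with 55 above (0.498%) and 66 below (0.598%). The median log2 fold change, HIGH PA over CONTROL, was 0.02, and 5774 features (52.3%) lay above 0. For a gene with the median SE of 0.313 the 95% interval was ± 0.644 on the log2 scale, so smaller differences could not be resolved for such a gene. That width is for a single unadjusted test, and adjustment over 11040 features requires larger differences. DESeq2 called 1 gene (adjusted p = 0.00465), NPSR1, a neuropeptide receptor named here after its values were seen, which had reads in 3 of 8 HIGH PA discs (up to 45.7 CPM), in 0 of 3 CONTROL discs and in 1 BASAL disc. Leaving out CONTROL replicate 1 took the number at an unadjusted p under 0.05 to 277, and leaving out CONTROL replicate 2 took it to 688, with 0 genes called in either case. The genes and lists below are therefore given as values, and pathway members of larger p were picked by their role with their values known.

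Among the genes with the lowest p that were higher in HIGH PA, several had groups that did not overlap. NFYB, which encodes the B subunit of the CCAAT-binding factor NF-Y (chromosome 5, 68109724 to 68127878, UMD3.1), had 3.51, 5.44 and 4.60 CPM in the CONTROL discs and 11.4 to 33.6 CPM (median 16.2) in the HIGH PA discs. Every HIGH PA disc lay above every CONTROL disc, and the log2 fold change was 1.72 (SE 0.406). The value of CONTROL replicate 1 rests on 1 read and that of HIGH PA replicate 5 on 4 reads, and without the discs under 1000000 reads the log2 fold change was 1.68 (SE 0.455).

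RLIM, an X-linked ubiquitin ligase, had 28.1, 40.03 and 36.5 CPM in CONTROL and 62.5 to 159.5 CPM (median 68.4) in HIGH PA, again without overlap (log2 fold change 0.95, SE 0.257). The highest RLIM value was that of replicate 5, the female disc, and the other HIGH PA discs reached at most 74.9 CPM. TFCP2L1, a transcription factor of naive pluripotent cells (chromosome 2, 73379884 to 73441557), had 3.51, 9.33 and 6.14 CPM in CONTROL and 11.8 to 33.6 CPM (median 16.4) in HIGH PA (log2 fold change 1.21, SE 0.384). GNA13, a G protein α subunit, likewise lay above CONTROL in 8 of 8 discs (15.2 to 31.8 against 7.02 to 12.6 CPM).

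Further genes of this direction overlapped by 1 disc. MARK1, a microtubule affinity kinase, lay above CONTROL in 7 of 8 HIGH PA discs (log2 fold change 1.04, SE 0.320). BIRC2, an inhibitor of apoptosis, also did so in 7 of 8 (11.8 to 19.5 CPM in the tubular discs against 6.44 to 7.77 in CONTROL, log2 fold change 1.09), and the exception was replicate 5 with 0 reads. TXLNG had a log2 fold change of 0.82 (SE 0.265), with 7 of 8 discs above CONTROL.

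The genes with the lowest p in the other direction had log2 fold changes from -0.68 to -2.33. GADD45G, a growth arrest and DNA damage gene (chromosome 8, 90017452 to 90018996), had 52.7, 19.8 and 29.5 CPM in CONTROL and 2.22 to 16.8 CPM (median 11.9) in HIGH PA. All 8 HIGH PA values lay below CONTROL, with a log2 fold change of -1.50 (SE 0.380), although that of replicate 5 (16.8 CPM) rests on 2 reads and is under its floor. BASAL discs were equally low (7.12 to 15.3 CPM), and BASAL against CONTROL, which uses the same 3 CONTROL discs, gave -1.58 (SE 0.386). That comparison called 0 genes and had 3.43% of features at an unadjusted p under 0.05, 1.78% higher and 1.65% lower.

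CCS, the copper chaperone of superoxide dismutase, had 21.1, 12.05 and 14.4 CPM in CONTROL and 0 to 8.02 CPM (median 1.80) in HIGH PA (log2 fold change -1.84, SE 0.484). WBSCR17, a glycosyltransferase (chromosome 25, 29391799 to 29824281), had 133, 66.1 and 46.6 CPM in CONTROL and 8.40 to 46.9 CPM (median 20.9) in HIGH PA (log2 fold change -1.50, SE 0.356). Replicate 7 reached the lowest CONTROL value of WBSCR17, and the other 7 lay below it.

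GGA3, a sorting adaptor of the Golgi, had 84.3, 40.4 and 46.6 CPM in CONTROL and 8.40 to 35.9 CPM in HIGH PA (log2 fold change -1.08, SE 0.286). TRIM11, a ubiquitin ligase, had 42.1, 31.1 and 21.5 CPM against 0 to 18.2 CPM (log2 fold change -1.15, SE 0.306). UBE2M, which conjugates NEDD8 to cullins, had the smallest SE of these, with 154.5, 102.2 and 97.6 CPM in CONTROL and 58.8 to 81.8 CPM in HIGH PA (log2 fold change -0.68, SE 0.187). The groups of GGA3, TRIM11 and UBE2M did not overlap, although replicate 5 had 0 reads of CCS and TRIM11 and 1 read of GGA3, all under its floor. GPA1 (log2 fold change -2.33, SE 0.655) and ZSCAN20, a zinc finger gene (-1.96, SE 0.525), each lay below CONTROL in 7 of 8 HIGH PA discs.

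**Figure D2:**
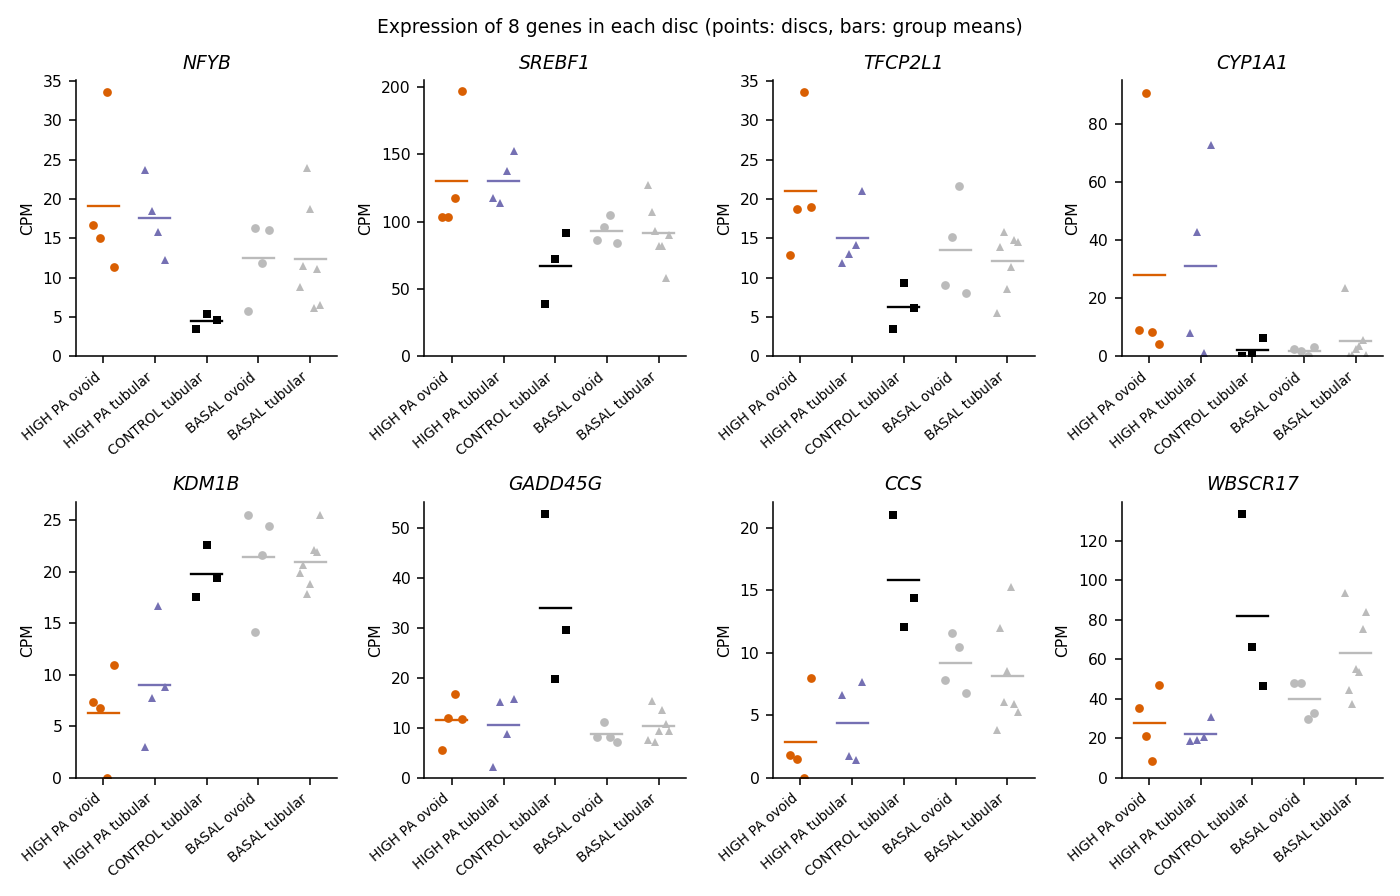
CPM of 8 genes in each disc by medium and embryo shape, with points for discs and bars for group means; BASAL discs are grey and the BASAL disc with 6814 reads is not drawn. For NFYB, SREBF1 and TFCP2L1 every HIGH PA disc lies above every CONTROL disc, for KDM1B, GADD45G and CCS every HIGH PA value lies below, that of replicate 5 on 0 to 2 reads, and for CYP1A1 6 of 8 lie above the highest CONTROL disc (6.44 CPM).

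Genes that handle fatty acids were divided evenly. Of 28 tested genes of uptake and storage 14 lay above and 14 below 0 (median -0.03), of 20 genes of synthesis and desaturation 10 and 10 (median 0.00202), and of 28 cholesterol genes 15 and 13 (median 0.02), against 52.3% above 0 among all features. None of these genes was called, and 1, 1 and 0 had an unadjusted p under 0.05 upwards and 2, 0 and 1 downwards (1.88% and 2.34% of all features). SREBF1, the transcription factor that drives fatty acid synthesis (chromosome 19, 35234636 to 35250672), stood apart within its list. It had 38.6, 72.3 and 91.1 CPM in CONTROL and 103 to 197 CPM (median 118) in HIGH PA, with all 8 discs above CONTROL and a log2 fold change of 0.86 (SE 0.258).

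The enzymes of fatty acid synthesis had smaller values than SREBF1. FASN, the fatty acid synthase, had a log2 fold change of 0.07 (SE 0.285), ACACA, which makes malonyl-CoA, 0.25 (SE 0.188), and the elongase ELOVL5 0.52 (SE 0.262). Among cholesterol genes the lowest p belonged to NSDHL, a demethylating enzyme of the pathway on the X chromosome (log2 fold change -0.56, SE 0.258), while the cholesterol exporter ABCA1 had 0.80 (SE 0.482).

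In uptake and storage, FABP3, a fatty acid binding protein, had 225 to 315 CPM in CONTROL and 162 to 235 CPM (median 189.5) in HIGH PA (log2 fold change -0.44, SE 0.194). PLIN2, the coat protein of lipid droplets (chromosome 8, 25129167 to 25142901), had 42.1, 61.0 and 48.2 CPM in CONTROL and 49.9 to 98.8 CPM (median 68.4) in HIGH PA. For PLIN2 6 of 8 HIGH PA discs lay above CONTROL, with a log2 fold change of 0.48 (SE 0.241). The acyl-CoA synthetase ACSL3 had 0.73 (SE 0.327) and the triglyceride lipase PNPLA2 -0.50 (SE 0.229), both named after their values were seen.

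Of 31 tested genes of fatty acid oxidation and PPAR targets 10 lay above and 21 below 0, with a median of -0.155 and 0 at an unadjusted p under 0.05. ACAD8, an acyl-CoA dehydrogenase, had the lowest p in this list (log2 fold change -0.64, SE 0.351), and without CONTROL replicate 1 its value was -0.10. CPT1A, which loads fatty acids for entry into mitochondria, had -0.39 (SE 0.448), and the nuclear receptor PPARD 0.52 (SE 0.326). PPARG, the fat-cell nuclear receptor that trophoblast also uses, had 0, 9.33 and 14.7 CPM in CONTROL and 0 to 11.5 CPM in HIGH PA, so that the groups overlapped (log2 fold change -0.65, SE 0.516, and -0.055 without CONTROL replicate 3).

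The P450 genes CYP1A1 and CYP1B1 are classic targets of the aryl hydrocarbon receptor. Apart from NPSR1 (log2 fold change 8.06, SE 3.69), they had the largest fitted differences of the named genes, on few reads. CYP1A1 (chromosome 21, 34342807 to 34345682) had 0, 0.389 and 6.44 CPM in CONTROL and 1.13 to 90.7 CPM (median 8.82) in HIGH PA. Its highest values were 90.7 CPM in replicate 2 and 73.0 and 42.9 CPM in the discs of cow 13, whereas the other discs of cow 07 had 1.13 and 4.22 CPM, below CONTROL replicate 3. CYP1B1 (chromosome 11, 20493492 to 20499001) had 0, 0 and 1.23 CPM in CONTROL and 0 to 16.2 CPM (median 9.06) in HIGH PA, with 5 of 8 discs above CONTROL. The log2 fold changes were 3.22 (SE 1.27) for CYP1A1 and 3.51 (SE 1.40) for CYP1B1. Without CONTROL replicate 3 they were 6.33 and 7.12, and without CONTROL replicate 2 they were 2.51 and 2.75, so their size depends on which of the 3 CONTROL discs, with 0 to 21 reads, are included. Of the 6 tested genes of this receptor's list 3 lay above and 3 below 0. NQO1, a quinone reductase, had a log2 fold change of -1.23 (SE 0.597), TIPARP, a feedback inhibitor of the receptor, 0.53 (SE 0.376), and the partner protein ARNT -0.33 (SE 0.307).

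Nuclear genes of oxidative phosphorylation, which encode the subunits of the respiratory chain, lay mostly below 0 by small amounts. Of 55 tested 50 lay below and 5 above 0, with a median log2 fold change of -0.23 and a range of -0.64 to 0.09. None was called, 4 had an unadjusted p under 0.05, all lower (2.34% of all features), and 1, COX7A2, had groups that did not overlap, with HIGH PA below (0.598% of all features). COX7A2, a subunit of complex IV named after its values were seen, had 214, 174 and 206 CPM in CONTROL and 89.5 to 161 CPM (median 144) in HIGH PA (log2 fold change -0.51, SE 0.235). NDUFS7, a subunit of complex I, had 76.6 to 123 CPM in CONTROL and 34.5 to 86.9 CPM in HIGH PA (log2 fold change -0.64, SE 0.233).

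These genes are short, and short genes as a class had lower values. With features split by exon length into 4 classes of 2760, the shortest class (up to 1354 bases) holds 46 of the 55 genes. The median log2 fold change of all its features was -0.06, against 0.09 in the longest class. The part of length in the list's median was not tested. BASAL against CONTROL, with the same CONTROL discs, had a median of -0.18 for this list. Over 30 alternative fits the list's median ran from -0.338 to -0.147 and 42 to 52 genes lay below 0, and in the deeper discs alone it was -0.155.

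The 13 genes encoded by mitochondrial DNA had a median of -0.23, with 12 below 0 and 0 at an unadjusted p under 0.05. COII, a complex IV subunit, had 4437 to 4932 CPM in CONTROL and 2050 to 4812 CPM in HIGH PA (log2 fold change -0.33, SE 0.263). This direction depended on which discs were included. The median was 0.06 without CONTROL replicate 1, 0.18 without the discs under 1000000 reads, where 9 of 13 lay above 0, and -0.00107 without the HIGH PA discs of cow 07. The mitochondrial share of reads was 3.80% ± 1.197 (SD, n = 8) in HIGH PA and 4.39% ± 1.07 (n = 3) in CONTROL.

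Glycolytic genes lay on both sides of 0. Of 23 tested 10 lay above and 13 below 0 (median -0.18). At an unadjusted p under 0.05, 1 was higher and 4 were lower (1.88% and 2.34% of all features). GPI, glucose-6-phosphate isomerase (chromosome 18, 44979577 to 45007642), had 472 to 829 CPM in CONTROL and 270 to 484 CPM (median 354) in HIGH PA, with 7 of 8 discs below CONTROL and a log2 fold change of -0.80 (SE 0.247). Aldolase ALDOA had -0.69 (SE 0.224), the phosphofructokinase PFKL -0.37 (SE 0.153) and the hexokinase HK2 -0.55 (SE 0.244). PFKFB3, which makes the activator of phosphofructokinase, stood on the other side (log2 fold change 1.30, SE 0.555). It had 38.6 to 58.7 CPM in CONTROL and 70.3 to 170.5 CPM in HIGH PA, above without overlap (0.498% of all features). ALDOA, PFKL, HK2 and PFKFB3 were named after their values were seen. BASAL discs spanned 33.6 to 344 CPM of PFKFB3.

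Genes of the unfolded protein response showed no shared direction, with 15 of 28 above and 13 below 0 and a median of 0.01. CRELD2, a protein of the endoplasmic reticulum that rises under stress there (chromosome 5, 120933368 to 120940333), had 140, 131 and 175 CPM in CONTROL and 50.4 to 123 CPM (median 92.4) in HIGH PA. All 8 discs lay below CONTROL for CRELD2 (log2 fold change -0.65, SE 0.198), whereas BASAL against CONTROL gave -0.05 (SE 0.206). MANF, a related stress protein, had -0.58 (SE 0.279). TRIB3, a pseudokinase induced by ATF4, had 0, 0.389 and 2.15 CPM in CONTROL and 1.48 to 16.8 CPM in HIGH PA, with 6 of 8 discs above CONTROL (log2 fold change 2.55, SE 0.860). TRIB3 and MANF were named after their values were seen. Of the transcription factors of this response XBP1 had -0.15 (SE 0.212), ATF4 0.28 (SE 0.260) and DDIT3 0.02 (SE 0.581).

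Heat shock genes had 7 of 15 above 0 (median -0.04), with their main factor HSF1 at -0.37 (SE 0.233), and at -0.095 without CONTROL replicate 1. Of 31 antioxidant and glutathione genes 13 lay above 0 (median -0.05). GCLC, which starts glutathione synthesis, had 24.6 to 29.8 CPM in CONTROL and 28.8 to 91.4 CPM (median 43.5) in HIGH PA, with 7 of 8 discs above CONTROL (log2 fold change 0.95, SE 0.360). PRDX6, a peroxiredoxin named after its values were seen, lay below CONTROL in 8 of 8 (151 to 269 against 285 to 298 CPM, log2 fold change -0.41, SE 0.206).

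Among 22 tested p53 targets and apoptosis genes 16 lay above and 6 below 0 (median 0.20), and those with the lowest p pointed both ways. Besides GADD45G, its relative GADD45B had -1.14 (SE 0.363). CDKN1A, the cell cycle inhibitor p21, had 10.5, 12.4 and 16.3 CPM in CONTROL and 14.8 to 140 CPM (median 29.1) in HIGH PA, with 7 of 8 discs above CONTROL (log2 fold change 1.70, SE 0.719). GADD45B and CDKN1A were named after their values were seen. Cell cycle genes were balanced, with 17 of 35 above 0 and a median of -0.00204, and the mitotic kinase PLK1 had -0.30 (SE 0.153).

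KDM1B was the lowest-p gene of the chromatin list and had been singled out in earlier results of these data. It encodes a histone demethylase needed in the oocyte for maternal imprints (chromosome 23, 39166818 to 39204690). The CONTROL discs had 17.6, 22.5 and 19.3 CPM and the HIGH PA discs 0 to 16.65 CPM (median 7.57), so that all 8 values lay below CONTROL (log2 fold change -1.14, SE 0.329). The 0 is that of replicate 5, whose floor of 25.2 CPM is above all CONTROL values, so this disc cannot be placed. The lowest CONTROL value, 17.6 CPM, is that of replicate 1 in lane 1, where 1 read equals 3.51 CPM. The highest HIGH PA value, 16.65 CPM, lies within 1 such read of it and cannot be placed either. BASAL discs had 14.1 to 25.5 CPM and stood with CONTROL (BASAL against CONTROL 0.25, SE 0.336). In lane 2 of the sequencer HIGH PA replicates 1 to 4 had 2.96 to 7.74 CPM against 22.5 in the CONTROL disc there, and in lane 1 replicates 5 to 8 had 0 to 16.65 CPM against 17.6. With lane as a term the log2 fold change was -1.28 (SE 0.360), and without the discs under 1000000 reads it was -1.12 (SE 0.343). DESeq2 gave an adjusted p of 0.412. Of 24 chromatin genes 17 lay above and 7 below 0 (median 0.16). Of these, 1 gene, KDM1B, was lower at an unadjusted p under 0.05 (2.34% of all features).

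Imprinted genes, 11 of which were tested, had 5 above and 6 below 0 (median -0.06). DIRAS3, a growth-restraining Ras-like gene, had 0 to 1.55 CPM in CONTROL and 0 to 20.7 CPM (median 5.63) in HIGH PA, with 6 of 8 discs above CONTROL (log2 fold change 2.21, SE 0.836). IGF2 had -0.13 (SE 0.634), its receptor IGF2R 0.17 (SE 0.278), PEG10 -0.20 (SE 0.752) and SNRPN 0.01 (SE 0.259).

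Apart from TFCP2L1, described above, no tested marker of the cell types of the disc had groups that lay apart. Among all features 1.1% did (0.498% higher and 0.598% lower in HIGH PA). In bulk tissue fewer cells of a type and less RNA per cell cannot be told apart. SOX2, a core pluripotency factor, had 38.6, 31.1 and 6.14 CPM in CONTROL and 3.10 to 53.25 CPM (median 15.2) in HIGH PA (log2 fold change -0.49, SE 0.731). GATA4, a hypoblast factor, had 52.7, 94.0 and 71.5 CPM in CONTROL and 42.3 to 151 CPM (median 113) in HIGH PA (log2 fold change 0.37, SE 0.443). FOXA2, another hypoblast factor, had 8.59 to 28.1 CPM in CONTROL and 1.85 to 16.8 CPM (median 4.84) in HIGH PA. For FOXA2, named after its values were seen, 6 of 8 discs lay below CONTROL (log2 fold change -1.45, SE 0.616). It was the only hypoblast gene at an unadjusted p under 0.05 (2.34% of all features were lower at that level). Of 15 epiblast genes 10 lay above 0 (median 0.10) and of 23 hypoblast genes 12 (median 0.04). Streak and mesoderm genes had 3 of 14 above 0 and a median of -0.31 with wide errors, such as GSC at -1.23 (SE 0.872), T at -0.03 (SE 1.096) and EOMES at -0.07 (SE 0.732).

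Trophectoderm genes, which can mark trophoblast left on the disc at dissection, had 15 of 21 below 0 and a median of -0.235. DLX5 had 42.1, 15.9 and 37.7 CPM in CONTROL and 0 to 21.4 CPM (median 10.2) in HIGH PA (log2 fold change -1.35, SE 0.408), and GATA3 had -0.73 (SE 0.285), both named after their values were seen. IFNT2, of the interferon tau family that signals pregnancy in ruminants, had 1134, 1271 and 2994 CPM in CONTROL and 58.8 to 2654 CPM (median 1025) in HIGH PA. Its reads can be shared with near-identical family members, and the log2 fold change was -0.63 (SE 0.633). Without CONTROL replicate 3 it was -0.00034, and without the HIGH PA discs of cow 07 it was -1.08. HIGH PA replicate 3 had the lowest trophectoderm sum of the 11 discs. Without it the median of the list was -0.085 and 13 genes lay below 0.

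Signalling and matrix lists had medians on both sides of that of all features. Of 19 genes of FGF signalling 16 lay above 0 (median 0.20), but without HIGH PA replicate 3 it was 11 of 18 (median 0.0511), and without CONTROL replicate 1 or 3 the median was 0.103 or 0.0983. In this list the feedback phosphatase DUSP5 had 0.61 (SE 0.510), and 0.19 without the HIGH PA discs of cow 13. Of 30 WNT genes 18 lay above 0 (median 0.14), with the ligand WNT6 at -0.60 (SE 0.382). Nodal and BMP genes had 12 of 24 above 0, with the BMP target ID3 at -0.61 (SE 0.339). Of 35 extracellular matrix genes 22 lay above 0 (median 0.12), and without CONTROL replicate 1 it was 18 of 35 (median 0.00143). The laminin receptor subunit ITGA6 had 105 to 117 CPM in CONTROL and 115 to 212 CPM in HIGH PA (log2 fold change 0.52, SE 0.198). For amino acid transport 13 of 16 lay above 0 (median 0.21), with the glutamine transporter SLC38A2 at 0.77 (SE 0.404). Interferon response genes numbered 5, with 2 above 0 and IRF7 at -0.73 (SE 0.370). No member of these lists but ITGA6 had an unadjusted p under 0.05.

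**Figure D3:**
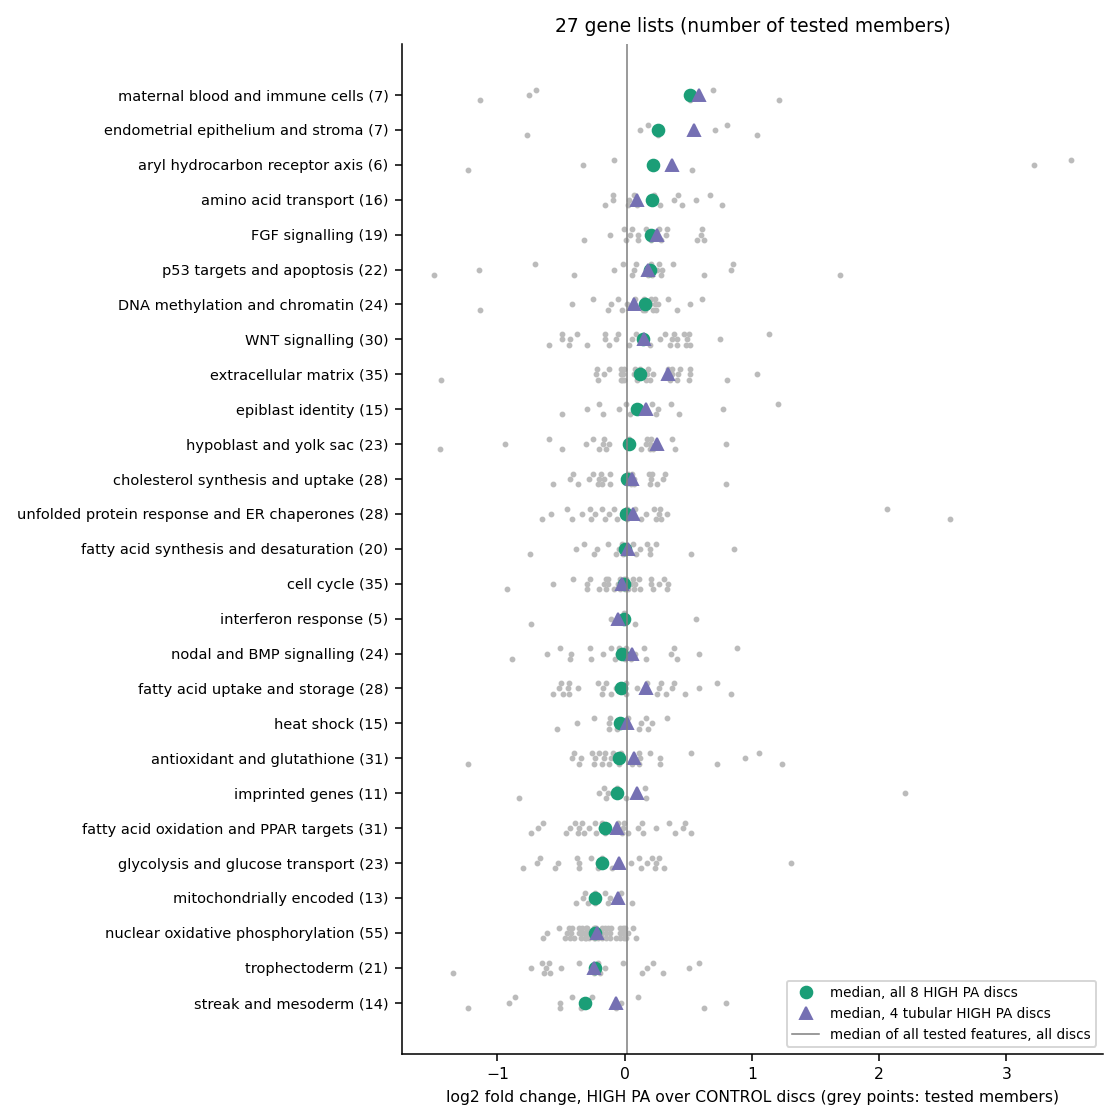
Log2 fold change, HIGH PA over CONTROL discs, of the tested members of 27 gene lists (grey points), with the median over all 8 HIGH PA discs (circles) and over the 4 tubular HIGH PA discs (triangles); the vertical line is the median of all tested features (0.02). Medians over all 8 discs lie between -0.31 and 0.51, and nuclear oxidative phosphorylation has 50 of 55 members below 0.

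Tubular HIGH PA discs were set against the CONTROL discs to hold embryo shape constant. By edgeR 0 of 11040 features (0%) were called and the smallest adjusted p was 0.746. At an unadjusted p under 0.05 there were 448 features (4.06%), 219 higher (1.98%) and 229 lower (2.07%). The 4 and 3 discs did not overlap for 703 features (6.37%), 289 higher (2.62%) and 414 lower (3.75%). DESeq2 again called NPSR1 alone (adjusted p = 0.00441), which 2 of the 4 tubular discs expressed. Interval widths were similar to those of the full comparison, with a median SE of 0.343 and ± 0.705 for the median gene.

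Tubular discs share 7 of the 11 libraries with the full comparison, so the values below are no separate evidence of direction. NFYB had a log2 fold change of 1.83 (SE 0.425), with 12.2, 15.8, 18.5 and 23.7 CPM in the 4 discs, all above CONTROL. SREBF1 had 0.87 (SE 0.290) with 114 to 152 CPM, and KDM1B had -1.04 (SE 0.376) with 2.96, 7.74, 8.79 and 16.65 CPM. ZSCAN20 had the lowest p, at 0.749, 1.15, 1.48 and 2.26 CPM against 17.6, 10.9 and 4.91 in CONTROL (log2 fold change -2.69, SE 0.561, edgeR adjusted p = 0.746). WBSCR17 (-1.70, SE 0.385) and GPA1 (-2.79, SE 0.658) did not overlap CONTROL here, whereas they had overlapped by 1 disc in the full comparison. ATP1B1, a sodium pump subunit, had 43.7, 128, 144 and 174 CPM against 35.1, 48.6 and 53.7 in CONTROL (log2 fold change 1.34, SE 0.400), and 3 of the 4 discs lay above CONTROL. IER2, an immediate early gene, had 96.2 to 203 CPM against 225 to 435 in CONTROL, without overlap (log2 fold change -1.08, SE 0.287).

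Some lists had other values when ovoid discs were left out. Extracellular matrix genes had 32 of 35 above 0 and a median of 0.34 in tubular discs, against 22 of 35 and 0.12 before. Without CONTROL replicate 1 this was 24 of 35 and 0.13, and without HIGH PA replicate 3 it was 26 of 34 and 0.14. Streak and mesoderm genes had 7 of 14 below 0 (median -0.06) instead of 11, and mitochondrially encoded genes 8 of 13 (median -0.05) instead of 12. Nuclear oxidative phosphorylation had 47 of 55 below 0 (median -0.215) and trophectoderm 17 of 21 (median -0.24). Without HIGH PA replicate 3 these were 40 of 55 (median -0.118) and 11 of 21 (median -0.00632). The difference between ovoid and tubular discs was not tested within HIGH PA.

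**Figure D4:**
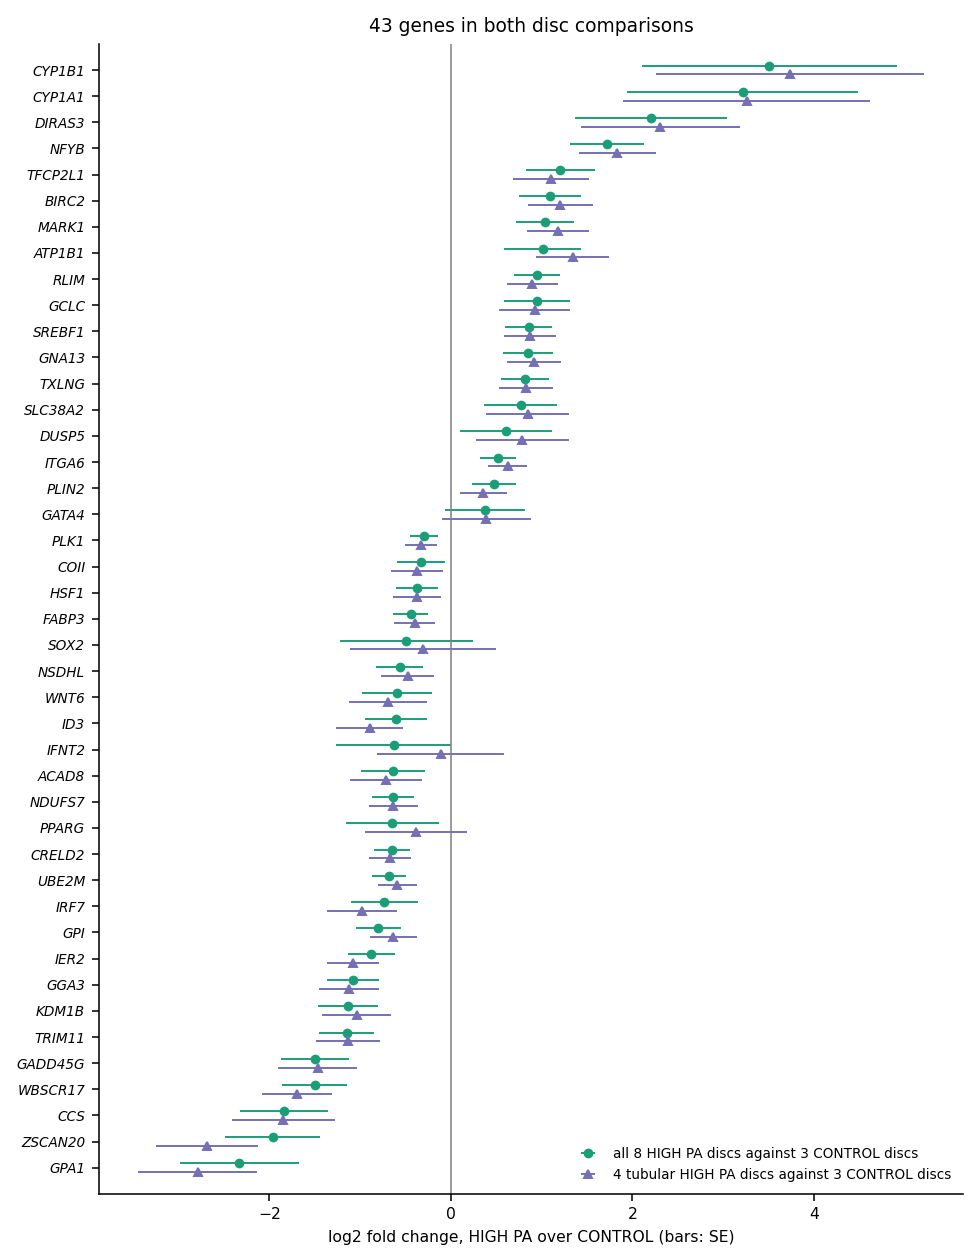
Log2 fold change over CONTROL of 43 genes, with bars of 1 SE, for all 8 HIGH PA discs (circles) and for the 4 tubular HIGH PA discs (triangles). Both comparisons use the same 3 CONTROL discs. Each gene lies on the same side of 0 in both, from CYP1B1 (3.51 and 3.74) to GPA1 (-2.33 and -2.79).

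Only HIGH PA replicate 3 came from the recipient cow that carried the CONTROL embryos, cow 813, so within that cow there is 1 disc against 3 and no test. Of all 11040 features 40.2% lay above the highest and 24.2% below the lowest CONTROL disc in this library. In the same disc NFYB had 23.7 CPM, SREBF1 118 CPM, KDM1B 2.96 CPM and CRELD2 59.2 CPM. Its place outside the CONTROL range for these genes is already part of the comparison above and is no separate evidence.

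The extraembryonic tissue of largely the same embryos gives a second, not independent, measurement, with CONTROL again from cow 813. It adds embryos of other shape and sex: 1 of the 4 CONTROL samples is from an ovoid female embryo, and 1 of the 9 HIGH PA samples is from a spherical female one. Among 9 HIGH PA and 4 CONTROL samples with a labelled sex, edgeR called 0 of 11114 features (0%, smallest adjusted p 0.332), and 1075 (9.67%) had an unadjusted p under 0.05, 716 higher (6.44%) and 359 lower (3.23%). All 4 CONTROL samples were in 1 sequencing lane, per the library names, and most HIGH PA samples were in others. The part of lane was not tested in this tissue. KDM1B had 28.9 to 36.9 CPM in the 4 CONTROL samples and 7.25 to 26.9 CPM (median 19.55) in HIGH PA (log2 fold change -0.85, SE 0.340). SREBF1 had 31.8 to 45.7 CPM in CONTROL and 41.65 to 134 CPM (median 93.2) in HIGH PA, with 8 of 9 above CONTROL (log2 fold change 1.18, SE 0.324). CYP1A1 had 0 to 0.835 CPM in CONTROL and 0 to 20.9 CPM in HIGH PA (log2 fold change 3.80, SE 1.32). GADD45G had -0.94 (SE 0.339), whereas NFYB had -0.25 (SE 0.423) and CCS 0.18 (SE 0.537).

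Whether the effect differed between disc and extraembryonic tissue was tested in 23 embryos with both, and 0 of 12291 features were called (0%, smallest adjusted p 0.635, 7.61% at an unadjusted p under 0.05, 4.3% with the larger value in extraembryonic tissue and 3.3% with the smaller). The effect in extraembryonic tissue minus that in the disc was 0.26 (SE 0.617) for KDM1B, 0.36 (SE 0.364) for SREBF1, -1.90 (SE 0.588) for NFYB and 2.27 (SE 0.657) for CCS on the log2 scale.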

How the data were processed

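Messenger RNA of single discs was sequenced from stranded libraries in paired reads of 50 bases, 12 samples per lane, per the labels' protocols. The authors deposited 1 table of total exon read counts for 24596 features; the submitters' processing notes name UMD3.1 and DESeq2 1.10.1. The aligner, and whether counting used strand, are not given in the sources used here. CPM are counts per 1000000 exon reads of a library. Counts were fitted with edgeR 4.0.16 (TMM, filterByExpr, quasi-likelihood, Benjamini-Hochberg under 0.05) over all 23 discs with terms for medium and sex, or medium by shape and sex for tubular discs. BASAL disc 7 (6814 reads) stayed in the fit, as did a second BASAL disc that an alternative fit left out as lacking disc transcripts. All BASAL discs had reads of epiblast markers, with the lowest sum, 363.6 CPM, in BASAL disc 12. Only disc 7 is left out of BASAL ranges. Without disc 7 and that second BASAL disc edgeR called 0 genes (smallest adjusted p 0.704), with 587 features at an unadjusted p under 0.05. SEs were derived from each log2 fold change and its F statistic. Alternatives used DESeq2 1.42.0 and limma 3.58.1 in R 4.3.3, and scripts were tested on simulated data. No 2 of the 11 libraries were identical. Members and gene lists were chosen with earlier results of these data known. Named genes are the 8 of lowest p in each direction, the 4 of lowest p in each direction among tubular discs, the lowest-p gene of each non-marker list, and SOX2, GATA4, IFNT2, PPARG, PLIN2, KDM1B, CYP1A1 and CYP1B1. Any other gene was chosen after its values were seen.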

Additional observations from a re-analysis of the deposited data

Results flagged for a closer look

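Among 53 gene and library measures checked over the 8 HIGH PA discs, 6 had 1 disc far from the others by Dixon's criterion, which chance meets in about 1 of 20 groups. In 5 the distant disc was replicate 5, the shallowest (119116 reads) and the only female one: RLIM at 159.5 CPM, NSDHL at 260.3 CPM, TFCP2L1 at 33.58 CPM and GPA1 at 41.98 CPM were its highest-of-group values, and BIRC2 at 0.0 CPM its lowest. RLIM and NSDHL lie on the X chromosome, and TFCP2L1 and GPA1 rest on 4 and 5 reads there; the part of sex or depth was not tested. GPI was highest in replicate 3, at 483.7 CPM.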

How the results depend on the processing

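The number of genes called was 0 in 29 of 30 alternatives for the discs and in 19 of 20 for the tubular discs, and DESeq2 called 1 gene in the discs, 1 in the tubular discs and 1 in extraembryonic tissue. Features at an unadjusted p under 0.05 numbered 194 to 764 in the discs (764 without a filter on low counts, 194 with limma and flush as a random effect) and 271 to 805 in the tubular discs (805 without HIGH PA replicate 6). With cow as a replicate block 0 genes were called, with 685 features at an unadjusted p under 0.05 of 11399 tested in the discs and 517 in the tubular discs; CONTROL came from 1 of these cows. The correlation of discs within a flush was 0.231, and whether discs of 1 cow deviate together across media was not checked. Of 1610 single-gene values over 59 results 1602 kept direction and side of the threshold and 8 turned direction. When single discs were left out, the log2 fold change of SOX2 ran from -1.08 to 0.0077 in the discs and from -1.25 to 0.19 in the tubular discs (0.19 without CONTROL replicate 2, 0.12 without HIGH PA replicate 6, 0.055 without HIGH PA replicate 8), that of IFNT2 in tubular discs from -0.49 to 0.52 (0.23 without HIGH PA replicate 3) and that of PPARG from -0.67 to 0.21. With sequencing lane as a term IFNT2 in tubular discs was 0.24; the cause was not tested. The difference in library measures, HIGH PA minus CONTROL, ran from -0.944 to 0.0193 percentage points for the mitochondrial share, from -13.3 to 13.9 CPM for the sum of immune markers, from -931300 to 555900 for exon reads and from -3015 to 1086 CPM for the hypoblast sum. Depth limits the discs under 1000000 reads (HIGH PA replicates 1 and 5, CONTROL replicate 1), where 1 read equals 1.85 to 8.4 CPM.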

Other observations

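Immediate early genes, which cells switch on within minutes of a stimulus, were listed after GADD45G and IER2 had been seen among the genes of lowest p, so their values describe a pattern noticed in these data. Of 24 tested genes 19 had a log2 fold change below 0 in HIGH PA against CONTROL discs, with a median of -0.59, and 10 were lower and 0 higher at an unadjusted p under 0.05 (2.34% and 1.88% of all features). None was called by edgeR. These counts include GADD45G and IER2, the genes that prompted the list, so they are no test of it. FOS, a subunit of the AP-1 factor, had 1085, 505.2 and 880.5 CPM in the CONTROL discs and 25.9 to 380.6 CPM (median 262.7) in the HIGH PA discs. All 8 HIGH PA discs lay below CONTROL for FOS (log2 fold change -1.65, SE 0.470). For EGR2, a zinc finger factor (-1.48, SE 0.569), the highest HIGH PA value was 13.49 CPM against 13.6 CPM in the lowest CONTROL disc. Replicate 5 was under its floor of 25.2 CPM for EGR2 and cannot be placed.

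JUN, the partner of FOS, had a log2 fold change of -1.22 (SE 0.375), EGR3 of -2.18 (SE 0.970) and the antiproliferative gene BTG2 of -1.36 (SE 0.581). FOSL1, another AP-1 subunit, stood on the other side at 1.58 (SE 0.791). Among tubular discs the median of the list was -0.698 with 18 genes below 0. BASAL against CONTROL, which shares the CONTROL discs, had a median of 0.00185, with members on both sides of 0. GADD45G (-1.58, SE 0.386), FOS (-0.71, SE 0.476) and IER2 (-0.59, SE 0.262) were lower in BASAL as well. FOSL1 (1.74, SE 0.800) and IER3 (0.70, SE 0.447) were higher in BASAL. In extraembryonic tissue HIGH PA against CONTROL had a median of 0.134. The time from flushing to lysis was not tested.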
